A study of Homo sapiens with 4 samples.

Results

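A set of 10 genes of leukotriene and prostaglandin synthesis and reception was followed through 4 human precursor B-cell acute lymphoblastic leukaemia (ALL) lines, out of 18377 genes on the array. They were listed by name, and each was read from its probe set with the highest mean. ALOX5, PLA2G4A, PTGDR and PTGER2 were selected on their measured levels in these same arrays, which differed between groups or lines. The levels of these 4 genes are therefore a description and carry no test, and they are called the picked genes. Of the 10 genes, 8 had a probe set of their own. LTC4S, the leukotriene C4 synthase gene, shared its 2 probe sets with MAML1, and LTB4R, the leukotriene B4 receptor gene, had no probe set with its symbol and was not analysed here.

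The translocation lines, RS4;11 and SEM, carry t(4;11) with a rearranged MLL gene. The other lines, NALM6 and REH, lack this abnormality. All 4 were grown to sub-confluency in RPMI medium with fetal bovine serum with no other treatment named in the labels, and each gave 1 array of total RNA. Each line derives from 1 leukaemia, and the replicate of a group is a whole line, so that every other difference between the lines enters the contrast. Values are RMA expression levels on a log2 scale, where 1 unit is 2-fold, with array medians of 6.40 to 6.46. The 25th percentiles of the arrays were 4.97 to 5.02, and a fold against a level near 5 is a compressed measure. Levels of different genes come from different probes. They were placed against the median or 25th percentile of the values, which is a coarse measure, and were not otherwise set against each other.

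Markers of the B lineage were read first. Of 12 measured markers of B-cell precursors, the number above the array median was 12 in RS4;11, 8 in SEM, 12 for NALM6 and 11 for REH. Their medians were 10.86, 7.60, 11.16 and 11.54 in the same order. The markers not above the array median were DNTT (5.11), CD24 (6.33), RAG1 (6.33) and RAG2 (6.31) in SEM, and VPREB1 (5.51) in REH. Of 13 measured myeloid markers, 3 lay above it in SEM and 2 in each of the other lines. The myeloid list had medians of 5.19, 5.10, 5.08 and 5.44 in RS4;11, SEM, NALM6 and REH. The median of T and NK cell markers was at most 4.97 in any line, and that of mast cell and basophil markers at most 4.67. In each line 1 of the 12 T and NK cell markers lay above the array median. This was NKG7 in RS4;11 (10.99), SEM (9.13) and REH (7.11), and CD4 in NALM6 (7.18), where NKG7 was at 6.39.

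Eicosanoids are lipid mediators made from arachidonic acid, which cytosolic phospholipase A2 frees from membranes. The lipoxygenase encoded by ALOX5, held at the nuclear membrane by the protein of ALOX5AP (FLAP), turns arachidonic acid into leukotriene A4. LTA4H makes leukotriene B4 from it and LTC4S makes the cysteinyl leukotriene C4. In the other branch the cyclooxygenases PTGS1 and PTGS2 form the prostaglandin precursor. The receptors of prostaglandin D2 (PTGDR) and E2 (PTGER2 and PTGER4) signal through cyclic AMP. Leukotriene synthesis is best known from neutrophils, monocytes and mast cells, and B-lineage cells also express ALOX5.

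The promoters of 4 of these genes are shown because the genes form neighbouring pairs with unlike and like patterns. PTGDR and PTGER2 lie next to each other on chromosome 14 and were high in the same line, whereas PTGS2 and PLA2G4A are neighbouring protein-coding genes on chromosome 1 and did not share a pattern. RefSeq start sites (GRCh38.p14) were available for 9 of the 10 genes. Each sequence holds the 250 bases before the start, read 5′ to 3′ on the gene's strand. Capitals mark GGGCGG, known as the GC box, TATAAA, known as the TATA box, or TGACG, known as the cyclic AMP response half-site, each on either strand. No marked motifs overlap.
PTGDR: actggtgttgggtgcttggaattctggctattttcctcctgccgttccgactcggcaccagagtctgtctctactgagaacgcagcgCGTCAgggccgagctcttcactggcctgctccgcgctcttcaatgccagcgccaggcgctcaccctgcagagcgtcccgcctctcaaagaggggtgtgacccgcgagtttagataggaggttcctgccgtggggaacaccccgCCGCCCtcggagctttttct
PTGER2: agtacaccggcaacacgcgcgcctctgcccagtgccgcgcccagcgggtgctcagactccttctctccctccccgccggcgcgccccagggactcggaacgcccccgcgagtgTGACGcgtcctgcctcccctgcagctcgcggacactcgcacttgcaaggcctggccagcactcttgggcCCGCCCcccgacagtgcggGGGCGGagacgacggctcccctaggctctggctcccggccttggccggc
PLA2G4A: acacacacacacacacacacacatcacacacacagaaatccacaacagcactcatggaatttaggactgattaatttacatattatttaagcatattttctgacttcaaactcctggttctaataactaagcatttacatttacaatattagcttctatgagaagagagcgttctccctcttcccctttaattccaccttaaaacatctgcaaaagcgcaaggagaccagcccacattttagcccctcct
PTGS2: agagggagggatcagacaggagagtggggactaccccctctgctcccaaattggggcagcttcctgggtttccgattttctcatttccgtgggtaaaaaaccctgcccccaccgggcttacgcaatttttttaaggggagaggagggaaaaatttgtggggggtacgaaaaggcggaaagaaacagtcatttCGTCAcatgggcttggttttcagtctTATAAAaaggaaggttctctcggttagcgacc
These stand at chr14:52267448-52267697 (plus strand), chr14:52314062-52314311 (plus), chr1:186828699-186828948 (plus) and chr1:186680424-186680673 (minus). The PTGER2 window held 2 GC boxes, 1 half-site and 28 CpG dinucleotides, and the PTGDR window held 1 GC box, 1 half-site and 19 CpG dinucleotides. Windows of 27305 genes had a median of 11 CpG dinucleotides, and 42.3% of them held a GC box, 11.1% a TATA box and 21.7% a half-site. The PTGS2 window held 1 TATA box, 1 half-site and 9 CpG dinucleotides. None of the marked motifs occurred in the PLA2G4A window, which had 2 CpG dinucleotides. A match describes the sequence and is not a bound site.

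The 8 measured genes showed 5 patterns. PLA2G4A and PTGER4 were higher in both translocation lines, ALOX5 and LTA4H lower in both, PTGDR and PTGER2 stood out in NALM6 alone, and ALOX5AP was lowest in RS4;11. PTGS2 was low and level in all lines. These patterns are a description, and PLA2G4A and ALOX5 were picked for their levels. The share of all genes whose groups lie apart without overlap, whatever the gap, is not given here. For such a gene an exact permutation test cannot go below a two-sided p of 0.333, so the order alone is weak evidence of a group difference.

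**Figure D1:**
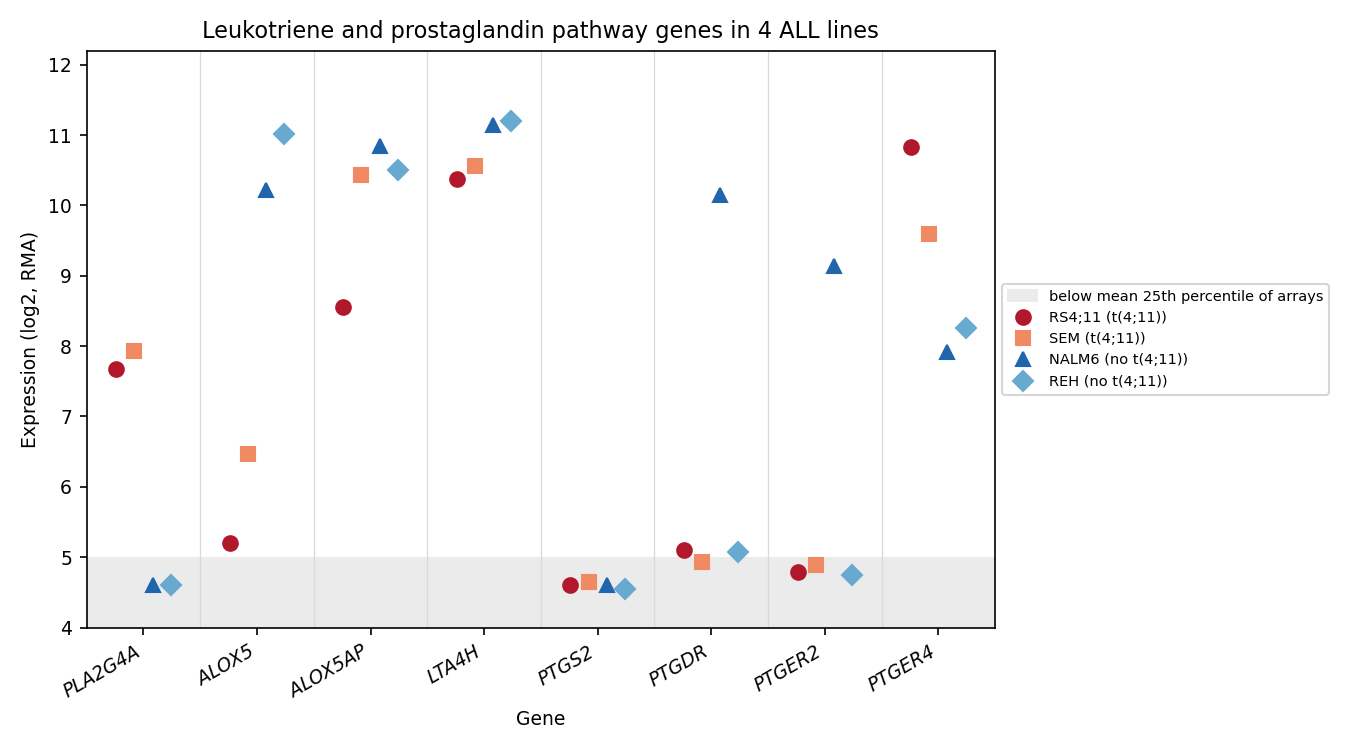
Expression (log2, RMA) of the 8 measured genes in each line, with 1 point per array and the translocation lines left of the others. PLA2G4A was at 7.68 and 7.93 in the translocation lines and 4.61 in both others, ALOX5 ran the other way, and PTGDR and PTGER2 were high in NALM6 alone. The shaded band lies below the mean 25th percentile of the arrays.

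PLA2G4A encodes the cytosolic phospholipase A2 that starts the pathway. Its level was 7.68 in RS4;11 and 7.93 in SEM, against 4.61 in NALM6 and 4.61 in REH. Both translocation lines lay above both other lines, which were below the 25th percentile of their arrays. The means were 7.80 ± 0.18 in the translocation lines and 4.61 ± 0.00 in the lines without it (SD, n = 2 each), a log2 difference of 3.20 or 9.16-fold. In these bulk RNA samples, fewer expressing cells and less RNA per cell cannot be told apart. Each of the 15 further phospholipase A2 genes measured spanned under 1 log2 unit over the lines, as did 80.7% of all genes. Of these, 13 (86.7%) stayed below the median of all values in every line, against 41.8% of all genes, with levels of 4.29 to 6.20 and ranges over the lines of at most 0.41. PLA2G6, the calcium-independent phospholipase A2, was at 7.78 and 7.26 in RS4;11 and SEM, against 7.49 and 7.79 in NALM6 and REH (limma, difference -0.12, SE 0.25, adjusted p = 0.902). The secreted form PLA2G10 stayed between 4.69 and 5.10. The shared probe set of PLA2G12A and its pseudogene PLA2G12AP1 was at 7.50 and 7.56 in RS4;11 and SEM, against 8.20 and 8.30 in NALM6 and REH, and cannot be given to either gene.

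ALOX5, the lipoxygenase gene, had the opposite order. It was at 5.20 in RS4;11 and 6.47 in SEM, against 10.22 in NALM6 and 11.02 in REH. The groups did not overlap, and the gap between SEM and NALM6 was 3.75, or 13.4-fold. The lines also differed within the groups, with RS4;11 2.41-fold below SEM and NALM6 1.75-fold below REH. The group means were 5.83 ± 0.90 and 10.62 ± 0.57 in the lines with and without the translocation (SD, n = 2 each), a 27.6-fold difference. The medians of the 13 myeloid markers were 5.19 and 5.10 in RS4;11 and SEM, against 5.08 and 5.44 in NALM6 and REH. Single ones varied by line, with MPO at 7.57 in REH and 4.75 in NALM6, and LYZ at 5.80 in REH and 9.65 in NALM6, and their part in the ALOX5 level was not tested.

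ALOX5AP, whose product presents arachidonic acid to the lipoxygenase, was not low wherever ALOX5 was. Its level was 8.56 in RS4;11 and 10.43 in SEM, against 10.84 in NALM6 and 10.51 in REH. SEM, with ALOX5 at 6.47, lay within 0.41 of NALM6 and 0.07 of REH, and RS4;11 was 3.66-fold below the next line. The group difference was -1.18 (SE 0.74), or -0.24 without RS4;11 and -2.11 without SEM, and did not pass (limma, adjusted p = 0.724), with a spread of 1.32 (SD, n = 2) within the translocation lines against 0.23 in the others.

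LTA4H, the hydrolase that makes leukotriene B4, was at 10.37 and 10.56 in RS4;11 and SEM, against 11.14 and 11.20 in NALM6 and REH. The groups did not overlap, and the difference of -0.70 (SE 0.11), 1.63-fold, was larger than the spread within either group (SD 0.14 and 0.04). It had an unadjusted p of 0.00637 in limma and did not pass the adjustment over all genes (adjusted p = 0.327). For LTC4S no level can be given. Its 2 probe sets shared with MAML1 were at 6.63 to 6.91 and at 5.10 to 5.23, with little spread over the lines.

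Further enzymes of the leukotriene branch were read from a list of 15 measured genes. COTL1 encodes coactosin-like protein, an actin-binding protein that also binds 5-lipoxygenase. It was at 8.13 in RS4;11 and 10.28 in SEM, against 6.31 in NALM6 and 6.39 in REH. Both translocation lines were higher, at least 3.36-fold in every pair, the reverse of ALOX5, and SEM alone was 4.42-fold above RS4;11. The group difference was 2.85 (SE 0.83; limma, adjusted p = 0.5), and 1.78 without SEM. MGST2, a microsomal glutathione transferase that can make leukotriene C4, was at 10.09 and 9.94 in RS4;11 and SEM, against 7.93 and 6.86 in NALM6 and REH. The groups lay 4.03-fold apart at their nearest pair, SEM and NALM6, and differed by 2.62 (SE 0.43; limma, adjusted p = 0.327). The related MGST3 was at 11.24 and 11.52 in RS4;11 and SEM, against 10.74 and 10.88 in NALM6 and REH (difference 0.57, SE 0.15; limma, adjusted p = 0.465). The other lipoxygenases were dim: ALOX12, ALOX12B, ALOX15, ALOX15B and ALOXE3 were among 9 genes of this list that stayed at 5.93 or below in all lines. These 9 of its 14 genes not picked (64.3%) lay below the median of all values in every line, against 41.8% of all genes. The widest of these was ALOX12B, at 5.65 in REH and 5.05 to 5.10 elsewhere.

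Among leukotriene receptors, CYSLTR1, which binds cysteinyl leukotrienes, varied between lines but not by group. It was at 6.99 in RS4;11 and 9.38 in SEM, against 8.11 in NALM6 and 10.17 in REH. Each group held a higher and a lower line, and the difference of -0.95 was smaller than its SE of 1.22 (limma, adjusted p = 0.832). CYSLTR2 stayed between 4.31 and 4.58. OXER1, a receptor of oxidised eicosanoids, was at 7.32 and 6.97 in RS4;11 and SEM, against 6.13 and 6.71 in NALM6 and REH (difference 0.72, SE 0.27; limma, adjusted p = 0.58).

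PTGS2, the inducible cyclooxygenase gene, was at 4.60 and 4.65 in RS4;11 and SEM, against 4.60 and 4.55 in NALM6 and REH. All 4 values lay below the 25th percentile of their arrays and spanned 0.10, and the difference was 0.05 (SE 0.09; limma, adjusted p = 0.881). It stayed there in the same lines in which PLA2G4A, its neighbour on chromosome 1, was at 7.68 and 7.93. PTGS1, the constitutive cyclooxygenase gene, was at 6.74 and 7.67 in RS4;11 and SEM, against 5.42 and 5.77 in NALM6 and REH. The groups did not overlap, with a difference of 1.61 (SE 0.39) or 3.05-fold that did not pass (limma, adjusted p = 0.443).

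Of the synthases downstream of the cyclooxygenases, TBXAS1 differed most. This thromboxane synthase gene was at 6.97 in RS4;11 and 9.41 in SEM, against 5.27 in NALM6 and 5.42 in REH. SEM was 5.45-fold above RS4;11, which in turn was at least 2.93-fold above both lines without the translocation. The group difference of 2.85 had an SE of 0.95 (limma, adjusted p = 0.534), and it was 1.62 without SEM. TBXAS1 is a gene of monocytes and platelets. In SEM 3 of 13 myeloid markers and 1 of 5 platelet markers lay above the array median, against 2 of 13 and 1 of 5 in RS4;11, NALM6 and REH. The myeloid list's median in SEM was 5.10, within its range of 5.08 to 5.44 over the other lines. Single myeloid markers differed from this median. CSF1R was at 7.69 in SEM and 5.53 to 5.88 in the other lines, and CD68 at 8.11 in SEM and 6.77 to 7.21 in the others. LYZ was highest in NALM6 (9.65) and MPO in REH (7.57). A part of these markers in the TBXAS1 level was not tested. CBR1, a carbonyl reductase that acts on prostaglandin E2, was at 5.95 and 6.84 in RS4;11 and SEM, against 5.41 and 5.28 in NALM6 and REH (difference 1.05, SE 0.36; limma, adjusted p = 0.545). Of the 11 prostanoid synthase genes measured, 6 (54.5%) stayed below the median of all values in every line, against 41.8% of all genes. Their levels were at 5.79 or below. Among them were PTGES, PTGDS, HPGDS and PTGIS, synthase genes of prostaglandins E2, D2 and I2. AKR1C3, also among them, was at 5.79 in RS4;11 and 4.61 in NALM6. PTGES2 lay between 7.66 and 7.81. PTGES3, which encodes a chaperone also described as a prostaglandin E synthase, lay between 11.80 and 12.05.

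**Figure D2:**
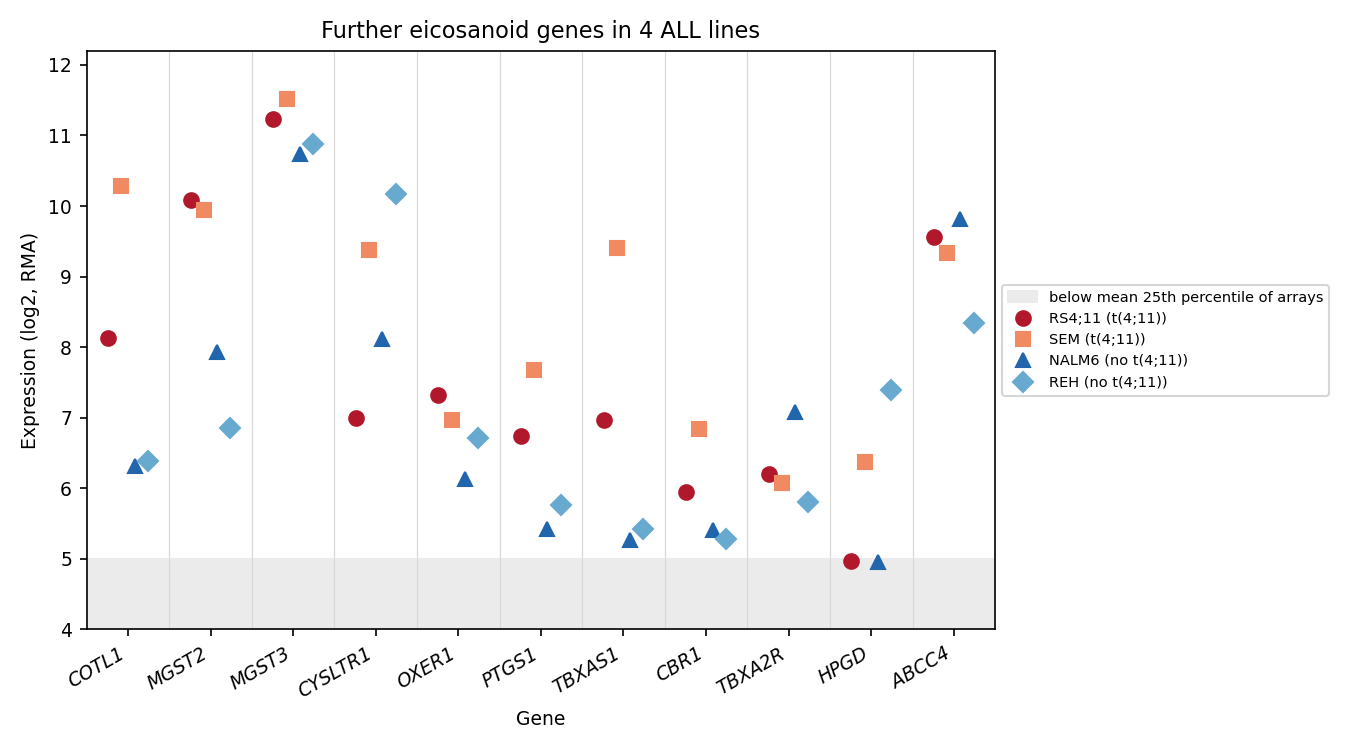
Expression (log2, RMA) of 11 further genes of the pathway in each line, with 1 point per array and the translocation lines left of the others. COTL1 and TBXAS1 were highest in SEM (10.28 and 9.41), MGST2 was high in both translocation lines, and CYSLTR1 and HPGD varied within both groups.

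PTGDR encodes a receptor of prostaglandin D2. It was at 10.15 in NALM6, against 5.10 in RS4;11, 4.93 in SEM and 5.08 in REH. NALM6 was 33.2-fold above the next line, and the other 3 lines lay within 0.17 of each other. PTGER2, a receptor of prostaglandin E2, was at 9.14 in NALM6, against 4.79 in RS4;11, 4.89 in SEM and 4.75 in REH, a 19.0-fold gap to the next line. The group difference of PTGDR was -2.60 with all lines and -0.06 without NALM6. A level 4-fold or more above each other line was found in NALM6 for 78 of 18377 genes (0.424%). Nothing is read from the 2 receptors against this share, since line differences were used to pick them.

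The measured neighbours of the pair on chromosome 14 are given as a description, since both receptors were picked for their levels. One annotated pseudogene, LOC100131689, lies between them and was not measured. Next to PTGDR, the basement membrane gene NID2 was at 5.22 in NALM6, against 5.18 in RS4;11, 5.08 in SEM and 9.76 in REH. It was thus high in REH, where PTGDR was low. On the other side, TXNDC16, a thioredoxin domain gene, was at 8.52 in NALM6, against 8.42 in RS4;11, 8.07 in SEM and 8.87 in REH. Over the 5 nearest measured genes on each side, NALM6 differed from the mean of the other lines by -1.45 (NID2) to 0.50 (GNG2), against 5.12 for PTGDR and 4.33 for PTGER2.

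**Figure D3:**
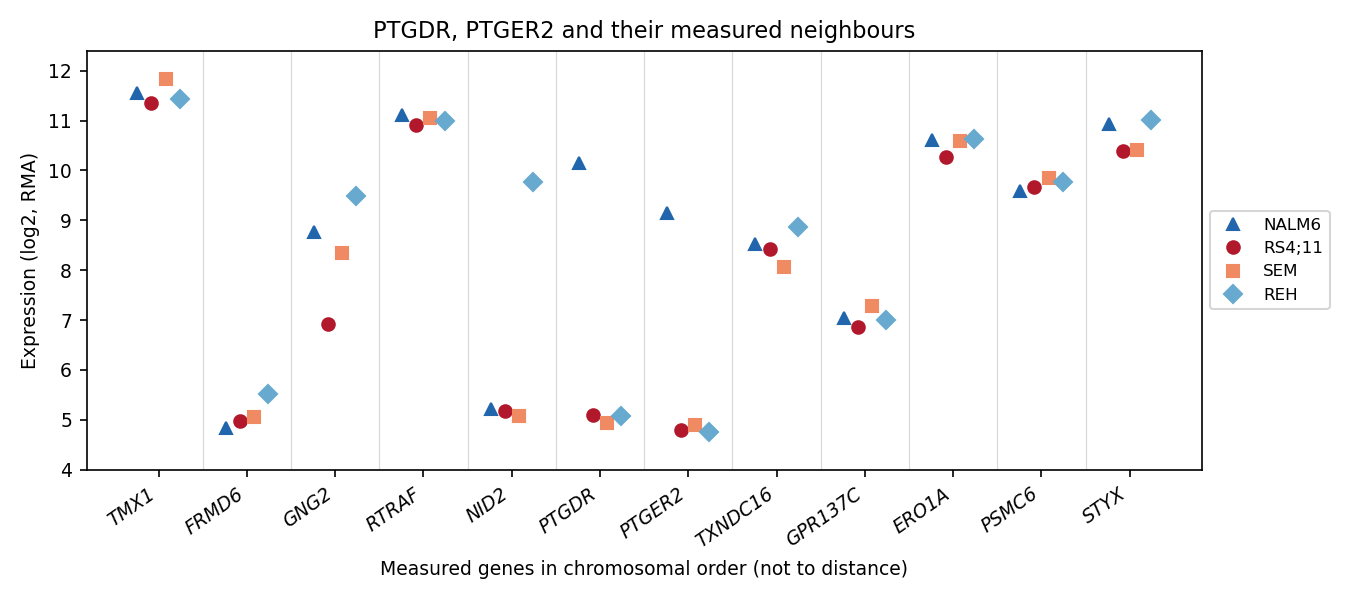
Expression (log2, RMA) of PTGDR, PTGER2 and the 5 nearest measured genes on each side, in chromosomal order and not to distance, with 1 point per array and NALM6 left of the other lines. NALM6 stood above the other lines at PTGDR and PTGER2, and REH at NID2.

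PTGER4, the other cyclic AMP-linked receptor of prostaglandin E2, did not share the PTGER2 pattern. It was at 10.83 in RS4;11 and 9.60 in SEM, against 7.92 in NALM6 and 8.26 in REH. Both translocation lines were higher, by at least 2.53-fold in every pair, and NALM6, the line with PTGER2 at 9.14, had the lowest PTGER4 level. The group means were 10.21 ± 0.87 and 8.09 ± 0.25 in the lines with and without the translocation (SD, n = 2 each). The difference of 2.12 (SE 0.50), 4.36-fold, did not pass (limma, adjusted p = 0.431). Of the other 6 prostanoid receptor genes, PTGER1, PTGER3, PTGFR and PTGIR lay between 4.65 and 5.55 in every line, and PTGFR had the widest range of these, 4.65 to 4.94. PTGDR2, the other prostaglandin D2 receptor gene, lay between 6.58 and 6.79. TBXA2R, the thromboxane receptor gene, was at 6.21 and 6.08 in RS4;11 and SEM, against 7.08 and 5.81 in NALM6 and REH (difference -0.30, SE 0.50; limma, adjusted p = 0.876).

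Of 6 genes of prostanoid transport and breakdown, 4 (66.7%) spanned under 1 log2 unit over the lines, against 80.7% of all genes. HPGD, the dehydrogenase that inactivates prostaglandins, was at 4.97 in RS4;11 and 6.37 in SEM, against 4.96 in NALM6 and 7.39 in REH. One line of each group was near 5, and the group difference was -0.51 (SE 1.09; limma, adjusted p = 0.908). ABCC4, an exporter of prostaglandins, was at 9.56 and 9.33 in RS4;11 and SEM, against 9.82 and 8.34 in NALM6 and REH (difference 0.36, SE 0.58; limma, adjusted p = 0.867).

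Over the wider eicosanoid list, 60 of 67 genes had a probe set of their own, and 56 of these were not among the 4 picked. None of the 56 passed limma at an adjusted p under 0.05, where 0.0218% of all genes passed (4 of 18377), and the smallest adjusted p of the 56 was 0.327. At an unadjusted p under 0.05 there were 6 (10.7%), against 9.39% of all genes. MGST2, PTGER4, PTGS1, MGST3 and COTL1 were the 5 higher ones in the translocation lines (4.6% of all genes were) and LTA4H the 1 lower one (4.79% of all genes were). This count moved with the lines and with the fit. It was 9 of the 56 (16.1%) without SEM, where 6.82% of all genes had such a p, and 4 (7.14%) without REH, where 10.1% had. It was also 9 with an intensity trend in the moderation, against 8.64% of all genes, and with all probe sets fitted, against 9.73%. With dim genes left out, 7 of the 21 that remained had such a p (33.3%, against 10.2% of all genes kept). In 4 of the 56 (COTL1, MGST2, TBXAS1 and PTGER4, 7.14%) the lower translocation line was at least 2-fold above the higher other line, against 0.963% of all genes. The reverse separation occurred in 0 of the 56, against 0.876% of all genes. Without SEM, which left fewer lines to part, 7 of the 56 (12.5%) were separated, against 3.72% of all genes, with ALOX5AP and CYSLTR1 among them as lower and AKR1C3 as higher. Without NALM6 the 2 shares were closer, with 5 of the 56 (8.93%) against 6.38% of all genes. An exact permutation test of 1 gene cannot go below a two-sided p of 0.333 with 2 lines against 2. The median difference of the 60 genes was 0.03, and also 0.03 for the 56, against 0.01 for all genes. Of the 56, 21 reached the median of all values in at least 1 line, against 10697 of 18377 genes (58.2%). The picked genes are left out of this count, since they were chosen on their levels.

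**Figure D4:**
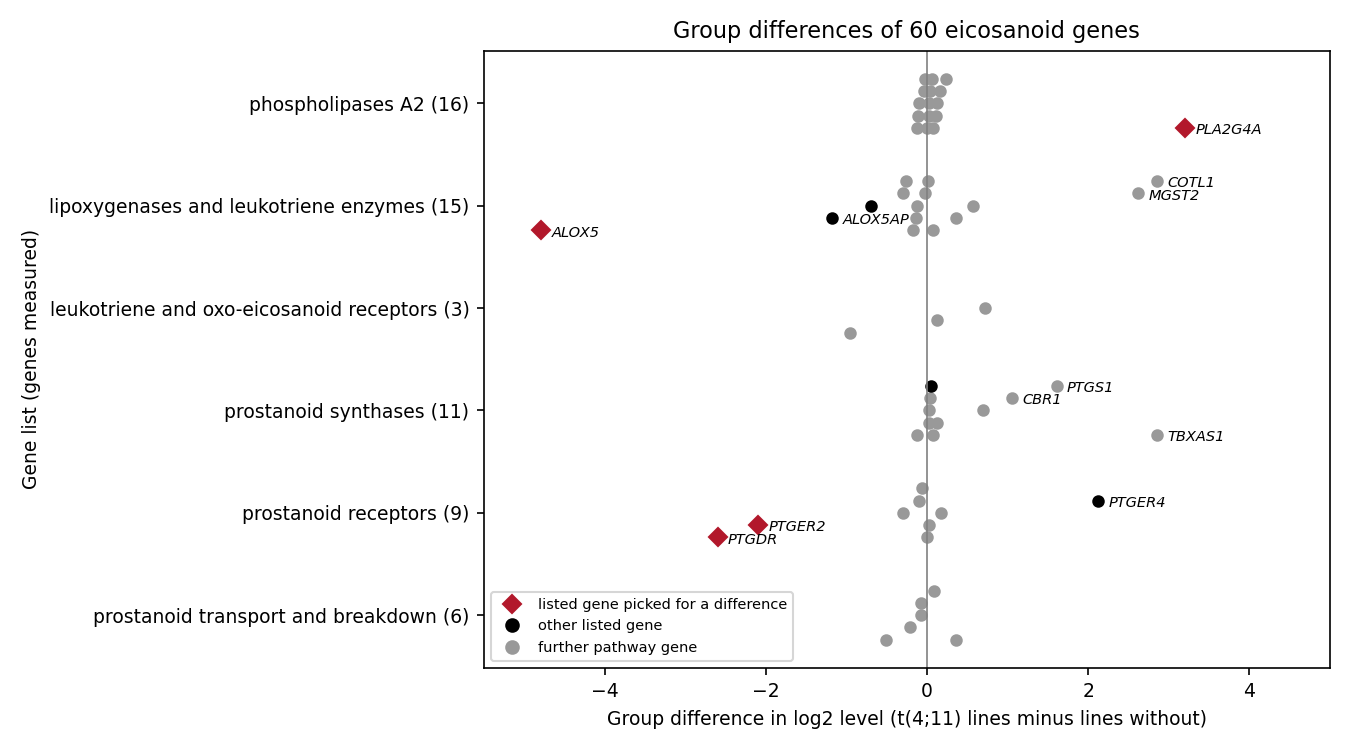
Group difference in log2 level (translocation lines minus lines without it) of the 60 measured genes, 1 point per gene, by gene list. Most points lie near 0, PLA2G4A, COTL1, TBXAS1, MGST2 and PTGER4 lie above 2, and ALOX5, PTGDR and PTGER2 below -2.

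A level 4-fold or more above or below each of the other 3 lines was found in 2 of the 56 genes (3.57%), against 3.4% of all genes. These were COTL1 and TBXAS1, both in SEM, where 0.691% of all genes were that far above the other lines.

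The 4 picked genes were also set beside the 1388 other genes that spanned at least 2 log2 units over the lines. Likeness was the Euclidean distance between levels centred on each gene's mean, over the 4 lines. Nearest to ALOX5 was ITPR3, a calcium release channel gene, at a distance of 1.0, with levels of 5.06 in RS4;11 and 5.06 in SEM, against 9.12 in NALM6 and 9.74 in REH. MYO5C (1.20), an unconventional myosin gene, and CD200 (1.21), a surface glycoprotein gene, followed. Of the genes compared, 1 lay within a distance of 1 of ALOX5. Nearest to PLA2G4A were TMSB15A (0.30), the cytoskeletal linker gene DST (0.31) and PLEKHA5 (0.36), with 28 genes within a distance of 1. TMSB15A, a thymosin gene, was at 8.57 in RS4;11 and 8.78 in SEM, against 5.12 in NALM6 and 5.34 in REH. Nearest to PTGDR was CLEC12A, a myeloid C-type lectin gene, at a distance of 0.16 and a level of 9.40 in NALM6, against 4.47 in RS4;11, 4.36 in SEM and 4.32 in REH. Nearest to PTGER2 was CACNA2D3, a calcium channel subunit gene, at a distance of 0.09 and a level of 9.0 in NALM6, against 4.75 in RS4;11, 4.76 in SEM and 4.60 in REH. The next 2 for each receptor were genes of the Y chromosome, whose levels are not given here. The distance between PTGDR and PTGER2 was 0.72, with 21 genes within 1 of PTGDR and 25 within 1 of PTGER2.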

How the data were processed

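The deposited log2 values were made by the authors with RMA (background correction, quantile normalization, probe set summary) and Partek, per the submitters' processing notes. Their versions and roles and the build of the annotation are not stated there. The log2 scale was inferred from the values (3.44 to 14.27). Such values carry no detection call per probe set, and 1 array per line limits the precision.

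Probe sets numbered 32968, and the 19310 with exactly 1 symbol in the platform's annotation were used, of which 19279 matched RefSeq (GRCh38.p14) by Entrez ID. They gave 18377 genes. Each measured gene of the wider list had a single probe set. RefSeq tables also gave gene order and promoters.

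Groups follow the labels, and replicate numbers were given in accession order. Levels were compared with limma 3.58.1 (lmFit, eBayes; R 4.3.3) over all genes, without covariates, two-sided, with Benjamini-Hochberg adjustment and a threshold of 0.05. Residual degrees of freedom were 2 and prior ones 1.34. The p-values set a group difference against the spread between lines within the groups, moderated by the spread of all genes. In 10 simulations with 18377 genes, of which 200 were changed, limma recovered 9.4%, 47.4%, 67.2% and 83.2% of genes changed 2-fold, 4-fold, 8-fold and 64-fold. A mean of 5.0 unchanged genes passed as well. Levels were drawn with each gene's own mean and fitted spread within groups. With 200 changed genes the adjustment is less strict, so these shares need not hold for the arrays, where 4 genes passed. Tables and plots used Python 3.11.15, pandas 2.3.3, numpy 2.4.6 and matplotlib 3.10.9.

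The genes, lists and tests were chosen with earlier results of these data known. The rule named the 10 genes, those of 6 pathway lists that passed, were separated 2-fold or stood 4-fold apart in 1 line, the 2 further genes of widest range per list, the 3 nearest patterns of each picked gene, and the neighbours of PTGDR and PTGER2. Other genes of the lists, GNG2 and single markers were named after their values were seen. Alternatives changed the scaling (quantile normalization repeated, median centring), the summary of probe sets, the filter on dim genes, the moderation (intensity trend, robust eBayes), the features fitted, the thresholds or the lines included.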

Additional observations from a re-analysis of the deposited data

How the results depend on the processing

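No paired analysis was possible because the labels give no replicate numbers that link lines across groups. Among the 56 genes not picked, the count past limma's threshold was 0 under every alternative run, also at an adjusted p under 0.1. With all lines kept, the count of the 56 at an unadjusted limma p under 0.05 was 6 or 9. The 6 (10.7%) came with both scalings, the mean of probe sets and robust eBayes, against 9.09% to 9.54% of all genes. The 9 (16.1%) came with the intensity trend and with all probe sets fitted, against 8.64% and 9.73%. Of the 21 genes left without dim genes, 7 (33.3%) had such a p, against 10.2% of all genes kept. The count also moved when a line was left out, which left 1 line in a group. The count separated 2-fold was 4 under every scaling and 1 at a 4-fold separation (MGST2), for which no share of all genes is given here. It was 6 (10.7%) without RS4;11, against 4.98% of all genes, and 7 (12.5%) without SEM, against 3.72%. Without NALM6 and without REH it was 5 (8.93%), against 6.38% and 4.76% of all genes. Leaving out a line thus raised the share of all genes as well. With all lines kept, the count separated 2-fold was also 4 under every moderation and filter, which was fixed in advance. The count rests on the levels alone, and the 4 genes were too bright for the dim filter to remove. Of the 60 measured genes, 10 stood apart in 1 line at 2-fold and 2 at 8-fold, against 4 at 4-fold. These counts include picked genes, and of the 56 others 7 (12.5%), 0 and 2 (3.57%) stood apart, against 8.81%, 1.6% and 3.4% of all genes. The median difference of the 60 ranged from -0.03 with centred arrays to 0.06 without NALM6.

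Of 249 repeats of the named genes' group differences, 237 kept their sign and 12 turned. The moderation, the features fitted, the dim filter and the summary of single probe sets leave a gene's levels unchanged. Repeats under these kept the sign by construction, and 44 of the 249 were of picked genes. Of the 205 repeats of genes that were not picked, 0 passed the threshold. When lines were left out in turn, the differences ran from -4.3 (without REH) to 0.09 (without NALM6) for PTGER2 and from -0.94 (without REH) to 0.34 (without NALM6) for TBXA2R. They ran from -0.39 to 0.14 for PLA2G6 (0.03 without REH), from -0.13 to 0.28 for PLA2G10, and from -0.56 to 0.04 for ALOX12B. For CYSLTR1 they ran from -2.15 to 0.24 (0.07 without REH), for HPGD from -1.72 to 0.71 (0.19 without RS4;11), and for ABCC4 from -0.37 to 1.1. With centred arrays PTGS2 was at -5e-05. Over the alternatives, differences of PTGER4 ran from 1.51 to 2.74 and of LTA4H from -0.80 to -0.60. Those of the picked genes ran from -5.42 to -4.15 for ALOX5 and from 3.07 to 3.32 for PLA2G4A. As both were picked for their differences in these arrays, these ranges are a description and lend them no support. Leaving out a line left 1 residual degree of freedom. Signal over background per probe set is unknown, which limits what can be said of levels near 5.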
